A study of Mus musculus with 34 samples.

Results

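Bone-marrow-derived macrophages of IL-6-/- mice were compared with wild-type macrophages in the 3 arms of the study in which a cytokine was added to lipopolysaccharide (LPS). The members were chosen by their titles: 6 IL-6-/- arrays and 6 wild-type arrays, 12 of the 34 arrays of the series. The macrophages had been grown from bone marrow for 7 days in CSF-1 per the labels. Every array of the comparison came from cells given LPS at 100 ng/ml. In the first arm IL-10 at 10 ng/ml was added for 45 min, in the second IL-6 at 2 ng/ml for 45 min, and in the third IL-10 at 10 ng/ml for 180 min. Each genotype held 2 arrays per arm. The arm was a block in the fit, so that the difference between genotypes was read within arms. IL-6-/- cells with LPS alone had 1 clearly labelled array at each time and stayed outside the comparison. IL-10-/- cells in the same 3 arms (6 arrays) served to show where IL-6-/- differed from another knockout. Strain, age, sex and the number of mice are not in the labels. Whether the genotypes shared a genetic background is thus not known, and the part of any such difference in the results was not tested. The titles call arrays of a group biological replicates without saying that they came from separate mice. The spread between these arrays, which lies behind each p-value, may be technical. Over the 3 arms, differences between arms in the genotype effect also counted as spread in the fit. A gene whose difference varied by arm was thus less likely to be called.

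Interleukin-6 is a cytokine that macrophages secrete after LPS engages Toll-like receptor 4. It binds its receptor, Il6ra, and the shared chain gp130 (Il6st), which activates JAK kinases and the transcription factor STAT3; Socs3 is the feedback inhibitor that STAT3 induces and that acts on gp130. IL-10 also signals through STAT3 but restrains inflammatory genes, and its receptor escapes Socs3. Cells without IL-6 lack the cytokine that they would otherwise make for themselves, while in the second arm they received it from outside.

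The promoters of 4 genes on which the results turn are given first: Il6, the gene disrupted in the knockout; Gdpd3, the largest rise among the named genes; Hpgd, the largest fall; and Serpinb2, a leading fall whose promoter held a STAT motif. They are RefSeq sequences of build GRCm38.p6, from 250 bases before to 50 bases after the start, 5′ to 3′ on the gene's strand. Il6 lies on the plus strand at chr5:30012864-30013163. Gdpd3 lies on the plus strand at chr7:126766164-126766463, Hpgd on the plus strand at chr8:56294302-56294601 and Serpinb2 on the plus strand at chr1:107511173-107511472, the first of its listed starts. Capitals mark a match to the STAT motif TTCNNNGAA or to the short NF-kappaB-type motif GGNNTTTCC, searched on both strands.
Il6: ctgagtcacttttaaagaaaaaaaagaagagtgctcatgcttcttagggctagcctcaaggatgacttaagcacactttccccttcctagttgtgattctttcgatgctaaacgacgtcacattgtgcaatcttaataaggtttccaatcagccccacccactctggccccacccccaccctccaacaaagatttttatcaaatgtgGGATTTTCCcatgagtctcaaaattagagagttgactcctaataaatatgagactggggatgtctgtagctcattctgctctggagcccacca
Gdpd3: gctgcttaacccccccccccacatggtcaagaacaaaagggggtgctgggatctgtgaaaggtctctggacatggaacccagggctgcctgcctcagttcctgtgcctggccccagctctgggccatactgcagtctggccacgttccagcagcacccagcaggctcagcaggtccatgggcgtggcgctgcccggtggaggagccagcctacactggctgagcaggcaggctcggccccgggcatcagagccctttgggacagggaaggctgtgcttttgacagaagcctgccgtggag
Hpgd: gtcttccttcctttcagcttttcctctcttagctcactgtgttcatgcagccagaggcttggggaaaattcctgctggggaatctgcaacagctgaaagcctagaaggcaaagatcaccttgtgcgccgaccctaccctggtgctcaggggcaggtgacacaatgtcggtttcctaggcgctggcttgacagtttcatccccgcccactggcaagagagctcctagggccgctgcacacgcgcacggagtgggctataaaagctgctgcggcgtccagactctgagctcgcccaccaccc
Serpinb2: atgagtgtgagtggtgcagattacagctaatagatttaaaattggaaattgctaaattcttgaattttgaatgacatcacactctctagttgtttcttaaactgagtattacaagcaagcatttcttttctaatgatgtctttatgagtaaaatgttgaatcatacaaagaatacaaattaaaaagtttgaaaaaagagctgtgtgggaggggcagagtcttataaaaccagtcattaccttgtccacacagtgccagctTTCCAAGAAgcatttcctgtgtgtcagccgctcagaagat
The Il6 promoter held 1 NF-kappaB-type match and 0 STAT matches, Serpinb2 held 1 STAT match, and Gdpd3 and Hpgd held neither. Of the 24 leading genes, which are the 12 largest rises and 12 largest falls called without overlap within each arm, 20 matched a promoter entry by symbol; 2 of the 20, Serpinb2 and Cap1, held the STAT motif and 0 held the NF-kappaB-type motif. Of all 32851 promoters of this length, 8.3% held the STAT motif and 5.8% the NF-kappaB-type motif. A match describes letters in this window and shows no binding.

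The arrays measured 12488 probe sets, short oligonucleotide sets that each stand for a transcript, and gave a signal on a linear scale. Tests used log2 of the signal plus 50 in limma, and a call means a Benjamini-Hochberg adjusted p under 0.05. Arrays of a group correlated with r between 0.934 and 0.96, and between 5818 and 6468 probe sets per array of the 2 genotypes reached a signal of 200. The early and late genes of the LPS response stood as the titles say: the summed signal of 11 late markers lay between 9554 and 13957 at 45 min and between 166353 and 193223 at 180 min in both genotypes together. The summed signal of 28 macrophage markers had a median of 408573 in wild type and 408970 in IL-6-/-. Of 13 neutrophil markers 8, and of 10 lymphocyte markers 6, stayed under 200 on all 18 arrays of the 3 genotypes in these arms. The 3′ to 5′ signal ratio of Gapdh, a readout of RNA and labelling quality, lay between 0.704 and 1.088 in wild type, between 0.614 and 0.685 in IL-6-/- and between 0.686 and 0.896 in IL-10-/-. All 6 IL-6-/- arrays thus had a lower ratio than all 6 wild-type arrays. For beta-actin the ratio ran from 1.658 to 2.51 in wild type and from 1.295 to 1.798 in IL-6-/-, with overlap. The part of this difference in the results below was not tested. The wild-type array LPS+IL-10 180 min replicate 2 had the highest Gapdh ratio.

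**Figure D1:**
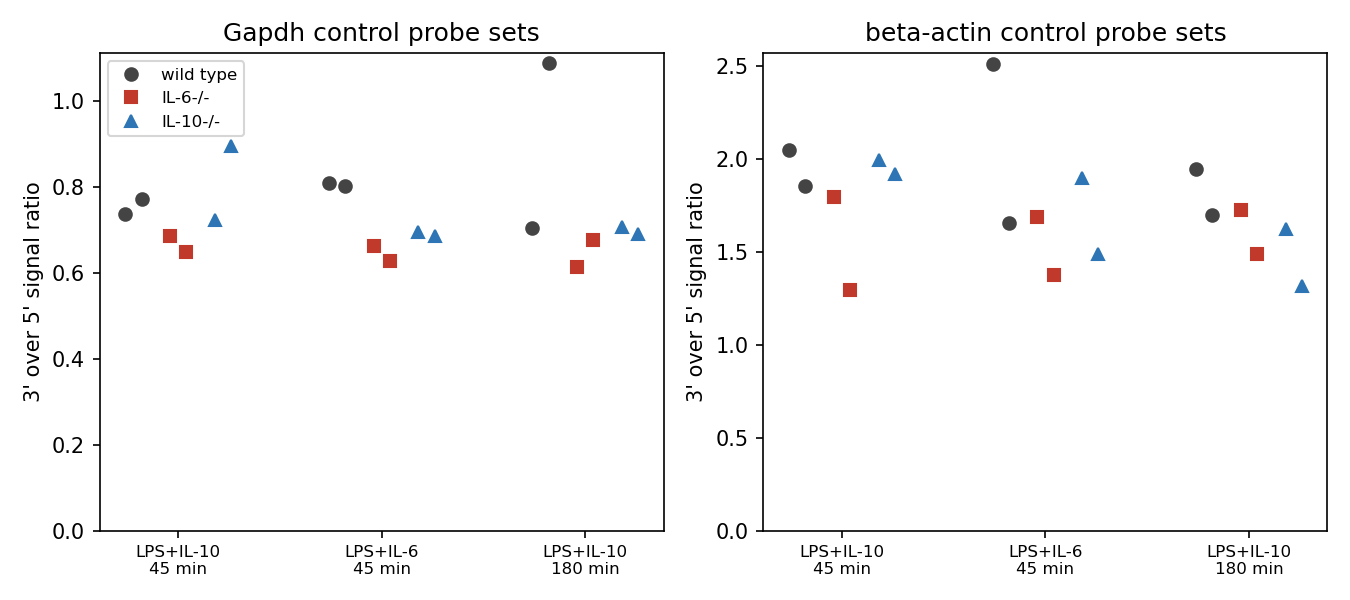
The 3′ over 5′ signal ratio (vertical axis, no unit, from 0) of the Gapdh and beta-actin control probe sets on each array, by arm (horizontal axis) and genotype; each point is 1 array. The IL-6-/- squares lie between 0.614 and 0.685 for Gapdh, all under the wild-type circles, whose highest value, 1.088, is LPS+IL-10 180 min replicate 2.

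IL-6-/- macrophages differed from wild type in a small set of genes, 2.41% of those tested. Most genes of the LPS response did not pass the test, which held for most of all genes too. The leading genes were picked among called ones for not overlapping within any arm, so their shift in every arm was set by that rule. The gene for a lysophospholipase D, Gdpd3, the amino acid transporter gene Slc7a7, the integrin gene Itgax (CD11c) and the LPS-inactivating enzyme gene Aoah were higher. The prostaglandin-degrading enzyme gene Hpgd, the non-coding RNA gene Snhg6, the plasminogen activator inhibitor gene Serpinb2 and the creatine synthesis gene Gatm were lower, and so was Il10 itself. Of 8224 probe sets tested, 215 were called (2.61%), 110 higher (1.34%) and 105 lower (1.28%). Counted as genes by the probe set with the highest mean, 146 of 6070 were called (2.41%), 69 higher (1.14%) and 77 lower (1.27%). The absolute log2 difference of the called probe sets had a median of 0.78 and ran from 0.32 to 3.22, and 54 of them reached 1 or more. In 463 of the 8224 probe sets (5.63%) the knockout arrays lay on the same side of the wild-type arrays in all 3 arms without overlap; among the called ones this held for 94 that were higher and 97 that were lower. The count of 215 fell with any arm left out, and most without an arm of 45 min. It was 62 without LPS+IL-10 45 min, 40 without LPS+IL-6 45 min and 165 without LPS+IL-10 180 min, from 8 arrays each. It was 135 without wild-type LPS+IL-6 45 min replicate 2 and 136 without IL-6-/- LPS+IL-6 45 min replicate 1.

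Gdpd3 had the largest rise among the named genes. In wild type its signal was 1431 and 1426 with LPS+IL-10 at 45 min, 1354 and 1407 with LPS+IL-6, and 796 and 982 with LPS+IL-10 at 180 min. In IL-6-/- it was 4146 and 4172, 4588 and 4204, and 2123 and 2452 in the same arms. The groups did not overlap in any arm, and the fitted difference was 1.49 ± 0.09 (log2, standard error; 2.8-fold; adjusted p = 4.04e-07; n = 6 against 6). IL-10-/- arrays gave 154 to 321, below both other genotypes, so that the knockouts lay on opposite sides of wild type.

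Slc7a7, which encodes the light chain of a cationic amino acid exporter, gave 398 and 152, 321 and 312, and 965 and 925 in the 3 wild-type arms. In IL-6-/- it gave 1119 and 1054, 966 and 1098, and 1648 and 1271. The groups lay apart in each arm, most widely at 45 min, and the difference was 1.36 ± 0.22 (2.56-fold, adjusted p = 0.00302). Itgax, encoding the integrin CD11c of dendritic cells and some macrophages, lay between 154 and 320 on the 6 wild-type arrays and between 464 and 725 on the 6 IL-6-/- arrays, with no overlap at all (1.21 ± 0.17, adjusted p = 0.00123). IL-10-/- arrays gave 177 to 289 for Itgax, within or near the wild-type range. Of the other 3 dendritic cell markers tested none passed, and Zbtb46 and Ccr7 stayed under a signal of 200 on all 18 arrays.

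The nucleoside kinase gene Uck2 lay between 179 and 321 in wild type and between 536 and 791 in IL-6-/- (1.35 ± 0.16, adjusted p = 0.000304). Aoah, encoding the acyloxyacyl hydrolase that strips fatty acids from LPS, lay between 508 and 752 in wild type and between 1065 and 1421 in IL-6-/- (1.02 ± 0.12, adjusted p = 0.000322). For both genes the highest wild-type array was below the lowest knockout array. Ephx1, encoding microsomal epoxide hydrolase, had a more variable wild type, from 124 to 575, against 568 to 1128 in IL-6-/- (1.26 ± 0.20, adjusted p = 0.00243). The ranges of Ephx1 touched over all arms but not within an arm. The remaining leading rises were Srp9 (signal recognition particle; 1.14), Rab8b (vesicle transport; 1.05), the lymphoid and myeloid transcription factor gene Ikzf1 (1.05), Ocel1 (1.04), Gem (a small GTPase; 0.96) and Hnrnpc (an RNA-binding protein; 0.96), with adjusted p between 0.00088 and 0.0197. The log2 rises of these 12 genes ran from 0.96 to 1.49.

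Hpgd, encoding the 15-hydroxyprostaglandin dehydrogenase that inactivates prostaglandins, had the largest fall. Wild-type signals were 722 and 638 with LPS+IL-10 at 45 min, 837 and 569 with LPS+IL-6, and 133 and 115 with LPS+IL-10 at 180 min. IL-6-/- signals were 21 and 14, 29 and 51, and 5.3 and 11. Every knockout array was thus below 60 while wild type ran from 115 to 837. The difference was -2.69 ± 0.27 (log2; adjusted p = 7.99e-05), and at such low knockout signals its size depends on the 50 added before the log. IL-10-/- arrays gave 75 to 641, close to wild type.

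Snhg6, a non-coding host gene of small nucleolar RNAs, gave 824 and 741, 996 and 949, and 958 and 703 in wild type against 204 and 145, 264 and 274, and 222 and 178 in IL-6-/-. The fall was of like size in the 3 arms (-1.80 ± 0.13, adjusted p = 1.8e-06). A probe set that the platform table lists under Mir686 ran from 1672 to 3542 in wild type and from 566 to 762 in IL-6-/- (-1.88 ± 0.11, adjusted p = 3.93e-07). The table's assignment of it to a microRNA gene was not tested. In IL-10-/- this probe set gave 2706 to 4136 and Snhg6 782 to 1122, in both cases far above IL-6-/-.

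Serpinb2, encoding plasminogen activator inhibitor 2 and among the genes that LPS raises in macrophages, was lower at every level of induction. Wild type gave 1186 and 870, 1712 and 1061, and 8654 and 5505, while IL-6-/- gave 398 and 358, 412 and 452, and 1848 and 1392. The difference was -1.64 ± 0.17 (adjusted p = 8.36e-05). IL-10-/- arrays lay between the genotypes, at 604 to 705 at 45 min and 2038 and 2406 at 180 min. Gatm, the first enzyme of creatine synthesis, gave 1426 to 2163 in wild type and 452 to 819 in IL-6-/- (-1.52 ± 0.15, adjusted p = 7.99e-05). Apoc2, encoding the cofactor of lipoprotein lipase, gave 1346 to 3264 against 745 to 1181 (-1.23 ± 0.12, adjusted p = 4.98e-05). Fbln2, an extracellular matrix protein gene, gave 1172 to 1605 against 393 to 811 (-1.13 ± 0.15, adjusted p = 0.000735). For Gatm, Apoc2 and Fbln2 the ranges over all arms did not overlap.

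The other leading falls were Npl (sialic acid breakdown; -1.76), Cap1 (actin turnover; -1.60), Sgip1 (-1.36), the phosphatase gene Ptpn22 (-1.35) and the transcription factor gene Klf5 (-1.31), with adjusted p between 0.000614 and 0.0114. Sgip1 gave 1137 to 1571 in wild type and 309 to 403 in IL-6-/- at 45 min, but 1453 and 1590 against 1339 and 836 at 180 min. Cap1 gave 454 to 1249 in wild type, against 196 to 323 in IL-6-/- and 222 to 304 in IL-10-/-, so it was as low in the other knockout. Without LPS+IL-6 45 min, Slc7a7, Itgax, Srp9, Rab8b, Ikzf1, Ocel1, Gem, Hnrnpc, Sgip1 and Ptpn22 lost their calls, and without LPS+IL-10 45 min, Ikzf1, Gem, Hnrnpc, Sgip1 and Klf5 did. Without LPS+IL-10 180 min, Ephx1, Hnrnpc, Ptpn22 and Klf5 lost theirs. With 1 array left out, Hnrnpc lost its call for 4 of the 12 arrays and the other 23 leading genes for none. A second, dimmer Ikzf1 probe set differed by -0.28 (adjusted p = 0.503), so the Ikzf1 probe sets disagreed.

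**Figure D2:**
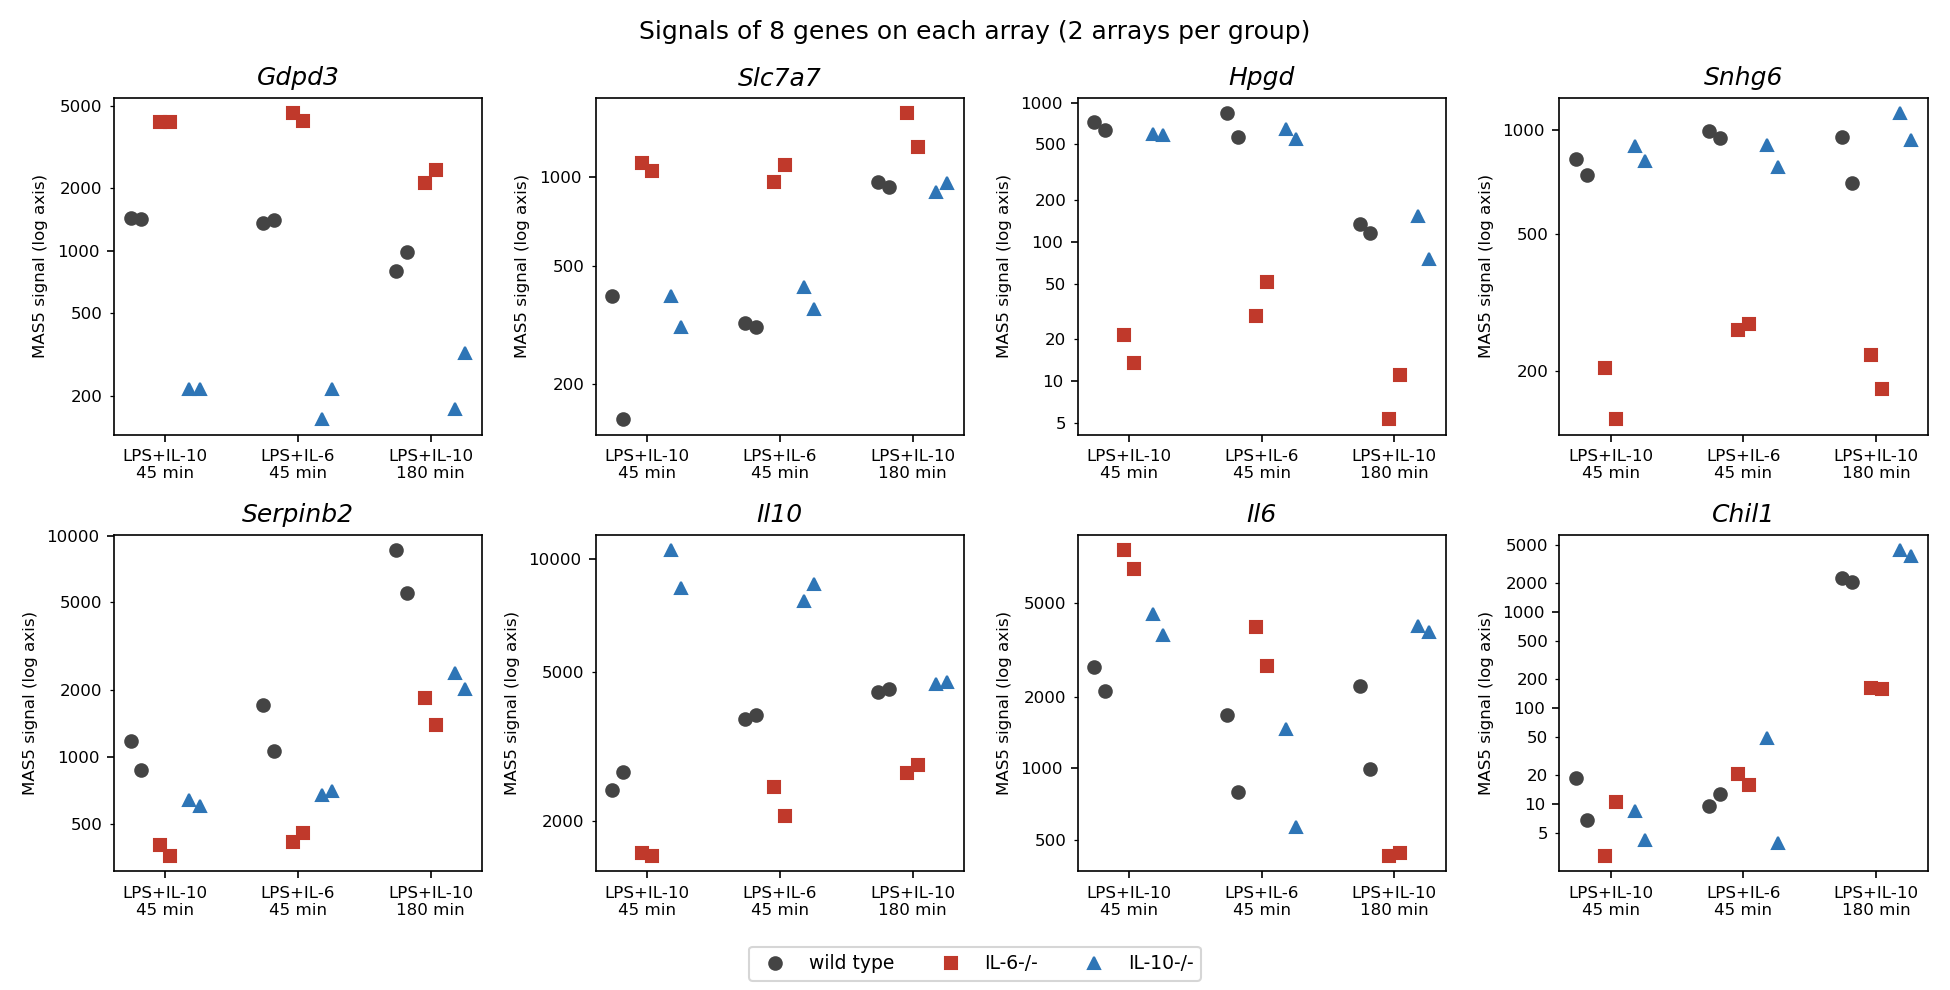
MAS5 signal (vertical log axis, linear units) of 8 genes on each array by arm (horizontal axis) and genotype; each point is 1 array, with 2 per group. Gdpd3 and Slc7a7 are highest in IL-6-/-, Hpgd, Snhg6, Serpinb2 and Il10 lowest, Il6 changes sides between 45 and 180 min, and Chil1 is at 21 or less at 45 min in wild type and IL-6-/- and lowest in IL-6-/- at 180 min.

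Some large differences belonged to probe sets outside the naming rule, described here after their values were seen. A probe set shared by Mndal, Ifi211, Ifi205 and Ifi204, interferon-inducible genes of the same family, had the largest difference of all, 3.22 ± 0.20 (adjusted p = 3.93e-07). It gave 145 to 2060 in wild type, against 1787 to 14618 in IL-6-/- and 4237 to 16290 in IL-10-/-, and cannot be given to a single gene. An H2-K1 probe set that is not the brightest of that gene gave 676 to 1631 in wild type, against 106 to 324 in IL-6-/- and 126 to 379 in IL-10-/- (-2.21 ± 0.27, adjusted p = 0.000322). The brightest H2-K1 probe set differed by -0.15 ± 0.06 (adjusted p = 0.246) and a further one by 0.01 (adjusted p = 0.983), so the probe sets of this class I histocompatibility gene disagreed.

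The arrays with LPS alone were not used for these calls, so they show the same measure on other arrays, with 1 IL-6-/- array against 2 wild-type arrays at each time and no test. At 45 min, 209 of the 215 called probe sets lay on the same side of the wild-type mean as in the comparison, and 200 lay beyond both wild-type arrays. At 180 min these counts were 174 and 154. Over all 8224 probe sets the sign was shared by 5408 at 45 min and by 4446 at 180 min, and 3835 and 3101 lay beyond both wild-type arrays on that side. Gdpd3 gave 4004 against 1185 and 1588 at 45 min, and 2200 against 665 and 847 at 180 min. Hpgd gave 48 against 517 and 540 at 45 min, while at 180 min it gave 11 against 136 and 21. Of the 24 leading genes, all lay beyond both wild-type arrays on the side of the comparison at 45 min. At 180 min Sgip1 went the other way (1998 against 1340 and 428), and Gem (418 against 493 and 356), Ephx1 (391 against 396 and 75) and Npl (163 against 299 and 112) lay between the wild-type arrays.

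**Figure D3:**
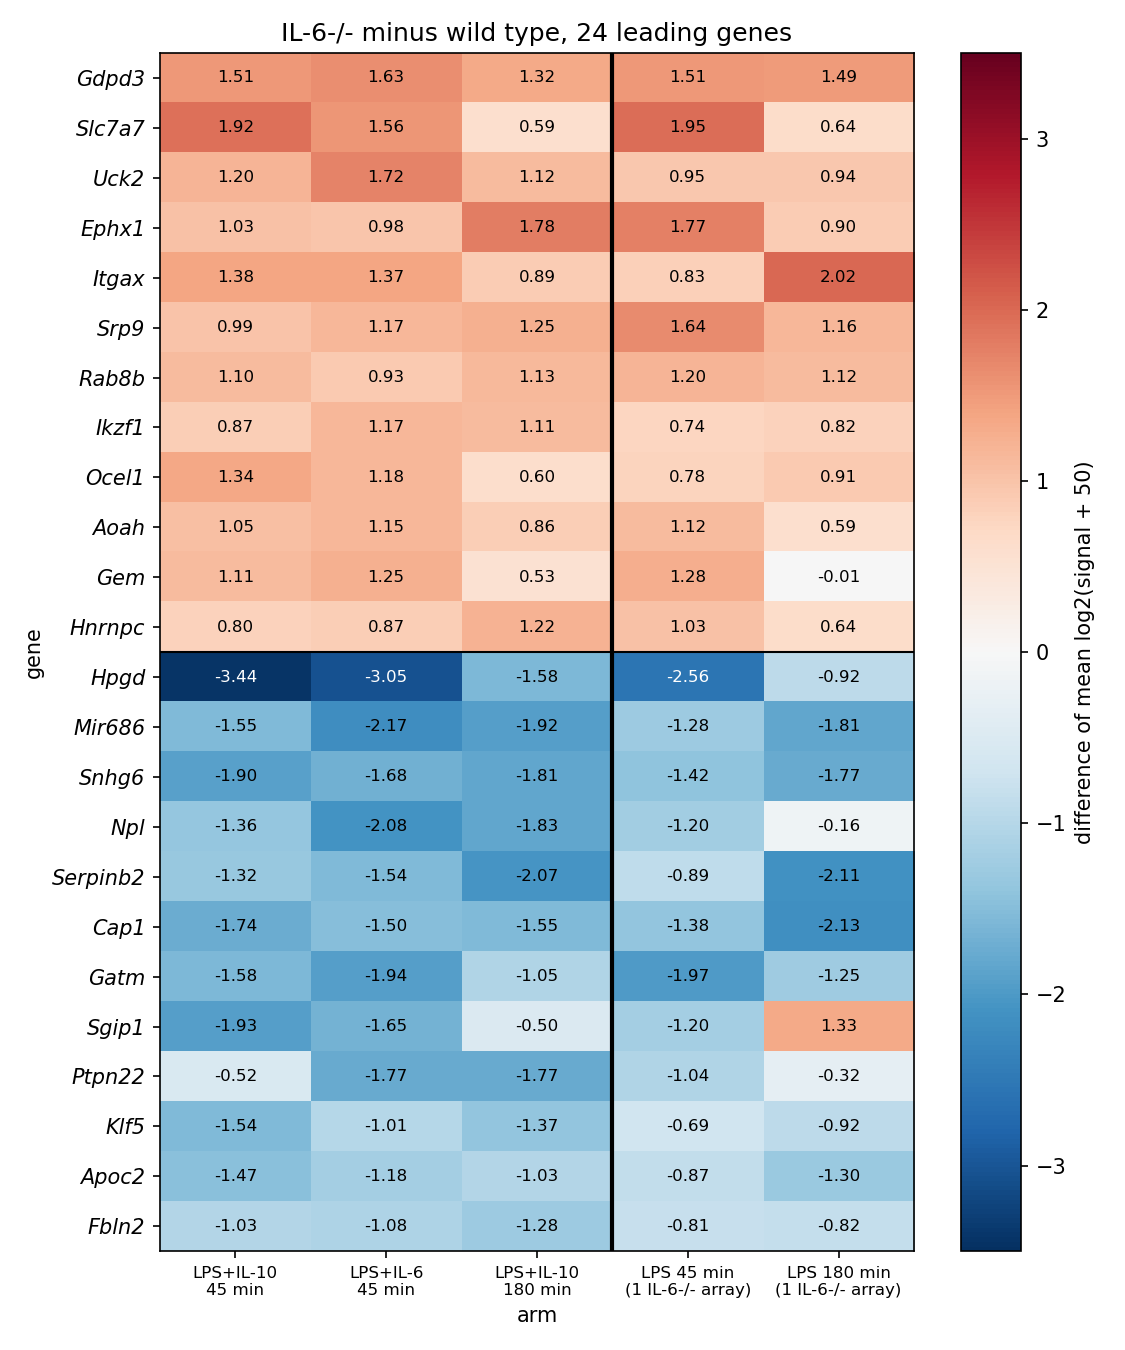
Difference of mean log2(signal + 50), IL-6-/- minus wild type, for the 12 leading rises and 12 leading falls (rows) in the 3 arms of the comparison and, right of the line, with LPS alone (1 IL-6-/- array against 2 wild-type arrays). Sgip1 at 180 min with LPS alone stands out with 1.33 against -1.93 with LPS+IL-10 at 45 min.

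The Il6 probe set gave 2679 and 2126 in wild type and 8400 and 6947 in IL-6-/- with LPS+IL-10 at 45 min. With LPS+IL-6 it gave 1675 and 795 against 3964 and 2703. With LPS+IL-10 at 180 min the order turned, with 2234 and 996 in wild type and 428 and 440 in IL-6-/-. IL-6-/- arrays thus lay above wild type at 45 min and below it at 180 min, without overlap in any arm. Within arms the differences were 1.66, 1.46 and -1.68 (standard error 0.37 each, adjusted p = 0.11, 0.181 and 0.107), none past the threshold. The difference at 180 min minus that at 45 min with IL-10 was -3.33 ± 0.52, with a raw p of 3.39e-05 and an adjusted p of 0.0929. The probe set gave signal in its own knockout and its place relative to the disrupted part is not in the files, so it does not check the genotype and speaks of transcript, not of cytokine.

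Of 31 tested genes of the IL-6 receptor and signalling list, 1 was called, beside 2.41% of all genes: Cebpd, a transcription factor gene that STAT3 is known to induce. It gave 2393 and 3243, 2667 and 2658, and 9654 and 11014 in wild type against 4427 and 3948, 3283 and 3146, and 13824 and 16260 in IL-6-/- (0.46 ± 0.10, adjusted p = 0.0186). The knockout arrays were higher in each arm, but the call ended in several alternatives, among them each fit that left out an arm. The list had 0 calls without IL-6-/- LPS+IL-10 180 min replicate 2, and 1 fall beside the rise without wild-type LPS+IL-10 180 min replicate 1. The list had a median difference of -0.02, against -0.01 over all probe sets, with 15 members above 0 and 16 below.

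The receptor genes did not pass: Il6ra differed by -0.36 ± 0.25 (adjusted p = 0.494), the gp130 gene Il6st by 0.05 ± 0.13 (0.899 adjusted), and the related receptor genes Osmr, Lifr and Il4ra by -0.05, -0.23 and 0.16. Socs3 lay between 17171 and 24737 in wild type and between 18136 and 25019 in IL-6-/- (0.07 ± 0.09, adjusted p = 0.74), and Stat3 between 2250 and 5144 and between 2297 and 6454 (0.01 ± 0.10, adjusted p = 0.956). The ranges over all arms overlapped for both genes, and those of Socs3 also overlapped within each arm. For Stat3 the groups overlapped within an arm only with LPS+IL-10 at 45 min. Its IL-6-/- arrays lay below wild type with LPS+IL-6 at 45 min and above it with LPS+IL-10 at 180 min. The kinase genes Jak1, Jak2 and Tyk2 differed by 0.05, -0.02 and 0.49, and the adaptor and phosphatase genes Grb2, Gab1, Sos1, Shc1 and Ptpn2 by 0.20, -0.27, -0.07, -0.02 and 0.10. The inhibitor genes Socs1 and Pias3 differed by -0.06 and -0.03. Among genes that IL-6 is known to raise, Fos, Junb, Cebpb, Pim1, Bcl3, Mcl1 and Icam1 differed by -0.13, -0.26, 0.10, -0.13, -0.09, -0.15 and 0.13. The acute phase genes Saa3, Hp and Lbp differed by 0.17, 0.06 and -0.78, the cytokine gene Ctf1 by -0.32 and the shedding protease gene Adam10 by 0.12. Lbp had the smallest adjusted p of those not called, 0.177. A second, dimmer Shc1 probe set was called at 1.09 ± 0.20 (adjusted p = 0.00706), so the Shc1 probe sets disagreed. Second, dimmer probe sets of other genes were not called but also gave unlike values. That of Il6st differed by 0.46 (adjusted p = 0.0503) and that of Adam10 by 0.66 (adjusted p = 0.0691). For Jak2 it was -1.24 (adjusted p = 0.184) and for Gab1 0.37 (adjusted p = 0.396). Those of Socs3 and Stat3 were close to the values above, at 0.11 and -0.08.

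Il10 was lower in IL-6-/- in every arm. Wild type gave 2419 and 2699 with LPS+IL-10 at 45 min, 3753 and 3844 with LPS+IL-6, and 4409 and 4512 with LPS+IL-10 at 180 min. IL-6-/- gave 1638 and 1614, 2471 and 2064, and 2693 and 2822. The difference was close to the same in the 3 arms, at -0.64, -0.74 and -0.68, and over them -0.69 ± 0.08 (1.61-fold lower, adjusted p = 0.000304). With LPS alone the IL-6-/- array gave 2006 against 2412 and 2634 at 45 min and 1680 against 3265 and 2701 at 180 min. The Il10 probe set gave 4634 to 10596 on the 6 IL-10-/- arrays, above all 6 wild-type arrays, so it gave signal in its own knockout and does not check that genotype. Of the 16 tested genes of the IL-10 receptor and signalling list 2 were called, both lower, beside 1.27% of all genes lower. Besides Il10 this was the stress-response gene Ddit4, an inhibitor of mTOR signalling (-0.82 ± 0.17, adjusted p = 0.0154). The receptor gene Il10ra differed by -0.03 ± 0.13 (adjusted p = 0.945). The median of the list was -0.03.

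Most genes of the inflammatory response were not called, which held for most of all genes too, with 2.41% called. Of 12 tested inflammatory cytokine genes 1 was called, beside 2.41% of all genes: Csf1 fell (-0.45 ± 0.10, adjusted p = 0.0236), with 2226 to 4070 in wild type and 1647 to 2588 in IL-6-/-. This call was lost without any one of 5 arrays and with any arm left out. Tnf differed by 0.42 ± 0.13 (adjusted p = 0.11) over the arms. With LPS+IL-10 at 45 min Tnf was 6410 and 6782 in wild type and 13114 and 12788 in IL-6-/- (0.97, within-arm adjusted p = 0.012), whereas with LPS+IL-6 it was 20195 and 21975 against 22092 and 20154. The difference between those arms did not pass the test. Il1b differed by -0.10 ± 0.08 (adjusted p = 0.564) and Il12b by -0.24 ± 0.25 (adjusted p = 0.672). At 45 min Il12b gave 158 or less in both genotypes. With LPS+IL-10 at 180 min it gave 1436 and 1014 in wild type and 599 and 822 in IL-6-/-. That difference, without overlap, was -0.74 (within-arm adjusted p = 0.694). With LPS alone at 180 min Il12b gave 626 against 1529 and 1416. None of 17 chemokine genes, 9 chemokine receptor genes, 39 immediate early genes and 28 heat shock and stress genes was called by limma, with 5, 3, 8 and 1 of them at a raw p under 0.05. Without wild-type LPS+IL-6 45 min replicate 2, 1 chemokine gene was called.

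Of 25 NF-kappaB components and feedback genes, 2 rose: Tank, an adaptor of the kinase TBK1 (0.63 ± 0.15, adjusted p = 0.0424), and Nfkbib, an inhibitor of NF-kappaB (0.52 ± 0.12, adjusted p = 0.0282), beside 1.14% of all genes higher. With 1 array left out the count ran from 0 to 2, Tank losing its call for 8 of the 12 arrays and Nfkbib for 7, and both lost it with any arm left out. Of 24 inflammatory enzyme and costimulation genes, Cd44, a hyaluronan receptor gene (0.91 ± 0.18, adjusted p = 0.0108), and Procr, the endothelial protein C receptor gene (0.47 ± 0.10, adjusted p = 0.0236), rose and Serpinb2 fell, beside 2.41% of all genes called. Procr lost its call without any one of 5 arrays and with any arm left out, and Cd44 without either arm of 45 min. Of 41 interferon response genes 3 fell, beside 1.27% of all genes: the guanylate-binding protein genes Gbp2 (-0.70 ± 0.12, adjusted p = 0.00468) and Gbp3 (-0.54 ± 0.13, adjusted p = 0.0365), and the transcription factor gene Irf8 (-0.56 ± 0.13, adjusted p = 0.0257). Gbp2 gave 598 to 769 at 45 min and 9045 and 6877 at 180 min in wild type, against 352 to 499 and 5438 and 4377 in IL-6-/-. In this list 30 of 41 members were below 0 and the median was -0.15, against -0.01 over all probe sets. Its count fell to 1 without IL-6-/- LPS+IL-10 180 min replicate 1 or replicate 2. It was 2 without the wild-type array with the highest Gapdh ratio and without 5 others. Gbp3 lost its call for 8 of the 12 arrays, Irf8 for 3 and Gbp2 for none.

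Among 27 macrophage genes 2 rose and 2 fell, beside 2.41% of all genes called. With 1 array left out, 1 to 3 rose and 1 to 2 fell. C1qb, a chain of the complement component C1q, gave 12681 to 20397 in wild type and 25977 to 31953 in IL-6-/- (0.72 ± 0.08, adjusted p = 0.000173). The ranges did not overlap, and IL-10-/- arrays gave 27448 to 35917. A second, dimmer C1qb probe set differed by 0.07 (adjusted p = 0.907), and the call was lost with the mean of the probe sets. The scavenger receptor gene Msr1 gave 290 and 393, and 538 and 635, in wild type at 45 min against 1185 and 854, and 1340 and 1086, in IL-6-/-, but 5973 and 4689 against 6592 and 5024 at 180 min (0.85 ± 0.19 over the arms, adjusted p = 0.0261). Its call was lost without any one of 7 arrays. The lysosomal protease gene Ctss gave 27740 to 37316 in wild type and 19662 to 23256 in IL-6-/- (-0.58 ± 0.07, adjusted p = 0.000263), again without overlap. The CSF-1 receptor gene Csf1r fell by 0.32 on the log2 scale (standard error 0.08, adjusted p = 0.0424), a call lost for 11 of the 12 arrays left out. Ctss was also the 1 called member of the 16 antigen presentation genes, beside 2.41% of all genes called. Of these genes 2 fell without IL-6-/- LPS+IL-10 45 min replicate 2.

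Several stromal genes were lower. Of 12 tested, 4 fell and 0 rose, beside 1.27% and 1.14% of all genes: the collagen genes Col1a2 (-0.85 ± 0.16, adjusted p = 0.00788), Col5a2 (-0.77 ± 0.16, adjusted p = 0.0151) and Col1a1 (-0.48 ± 0.10, adjusted p = 0.021), and the fibronectin gene Fn1 (-0.51 ± 0.11, adjusted p = 0.023). Col1a2 gave 1984 to 3731 in wild type and 1100 to 1856 in IL-6-/-. The summed signal of the 12 markers lay between 14458 and 15041 in wild type and between 10359 and 11090 in IL-6-/- at 45 min, and at 23302 and 31695 against 19114 and 22006 at 180 min. In IL-10-/- it lay between 18525 and 19646 at 45 min, above the wild-type arrays of that time. At 180 min the IL-10-/- sums were 28647 and 28849. Much of the sum at 180 min was Timp1, with 12613 and 19486 in wild type and 11466 and 14448 in IL-6-/-. Timp1 was not called (adjusted p = 0.0802). None of the 12 stayed under a signal of 200 on all 18 arrays. The median difference of the list was -0.48, with 10 of 12 below 0. The 2 above 0 were Acta2 (0.31, adjusted p = 0.18) and Postn (0.33, adjusted p = 0.369). Acta2 was not called, but its IL-6-/- arrays lay above wild type in each arm without overlap. In bulk samples fewer cells of a type and less RNA per cell cannot be told apart. The count of 4 was 4 without the wild-type array with the highest Gapdh ratio, 1 without wild-type LPS+IL-6 45 min replicate 2 and 6 without wild-type LPS+IL-10 180 min replicate 1. It was 2 without IL-6-/- LPS+IL-10 180 min replicate 1, IL-6-/- LPS+IL-6 45 min replicate 1 or wild-type LPS+IL-10 45 min replicate 2. Fn1 lost its call for 6 of the 12 arrays, Col1a1 for 4, Col5a2 for 1 and Col1a2 for none. With any arm left out Fn1, Col1a1 and Col5a2 lost their calls, and Col1a2 did for 2 of the 3 arms. Second, dimmer probe sets of Col1a2 (-0.42, adjusted p = 0.3) and Col1a1 (-0.49, adjusted p = 0.094) were also lower but not called. Fbln2, the matrix gene named above, is not in this list.

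Metabolic and cycle genes gave 1 call per list, beside 2.41% of all genes called. Of 19 glycolysis and hypoxia genes, the hexokinase gene Hk2 fell (-0.75 ± 0.10, adjusted p = 0.00102). Hk2 signals lay between 1318 and 1916 at 45 min and at 4707 and 5848 at 180 min in wild type, against 925 to 1043 and 2744 and 2590 in the knockout. Of 20 sterol genes, Ch25h, which makes 25-hydroxycholesterol, rose (0.78 ± 0.12, adjusted p = 0.00229). Of 46 cell cycle genes, the centromere histone gene Cenpa fell (-0.42 ± 0.10, adjusted p = 0.0398), a call lost for 11 of the 12 arrays left out and with any arm left out. None of the 8 neutrophil, 5 lymphocyte and 4 erythroid and mast cell genes tested was called by limma, with 1, 0 and 1 at a raw p under 0.05. Without the wild-type array with the highest Gapdh ratio, 2 sterol genes rose and 1 fell, 0 cell cycle genes were called, 1 NF-kappaB gene and 1 immediate early gene rose, and of the macrophage genes 2 rose and 1 fell. Without wild-type LPS+IL-10 180 min replicate 1 the count of immediate early genes that rose was 1, and 2 sterol genes rose without wild-type LPS+IL-10 45 min replicate 2 or wild-type LPS+IL-6 45 min replicate 1. The 8 early and 11 late LPS time markers gave no call either, with 1 and 2 at a raw p under 0.05.

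**Figure D4:**
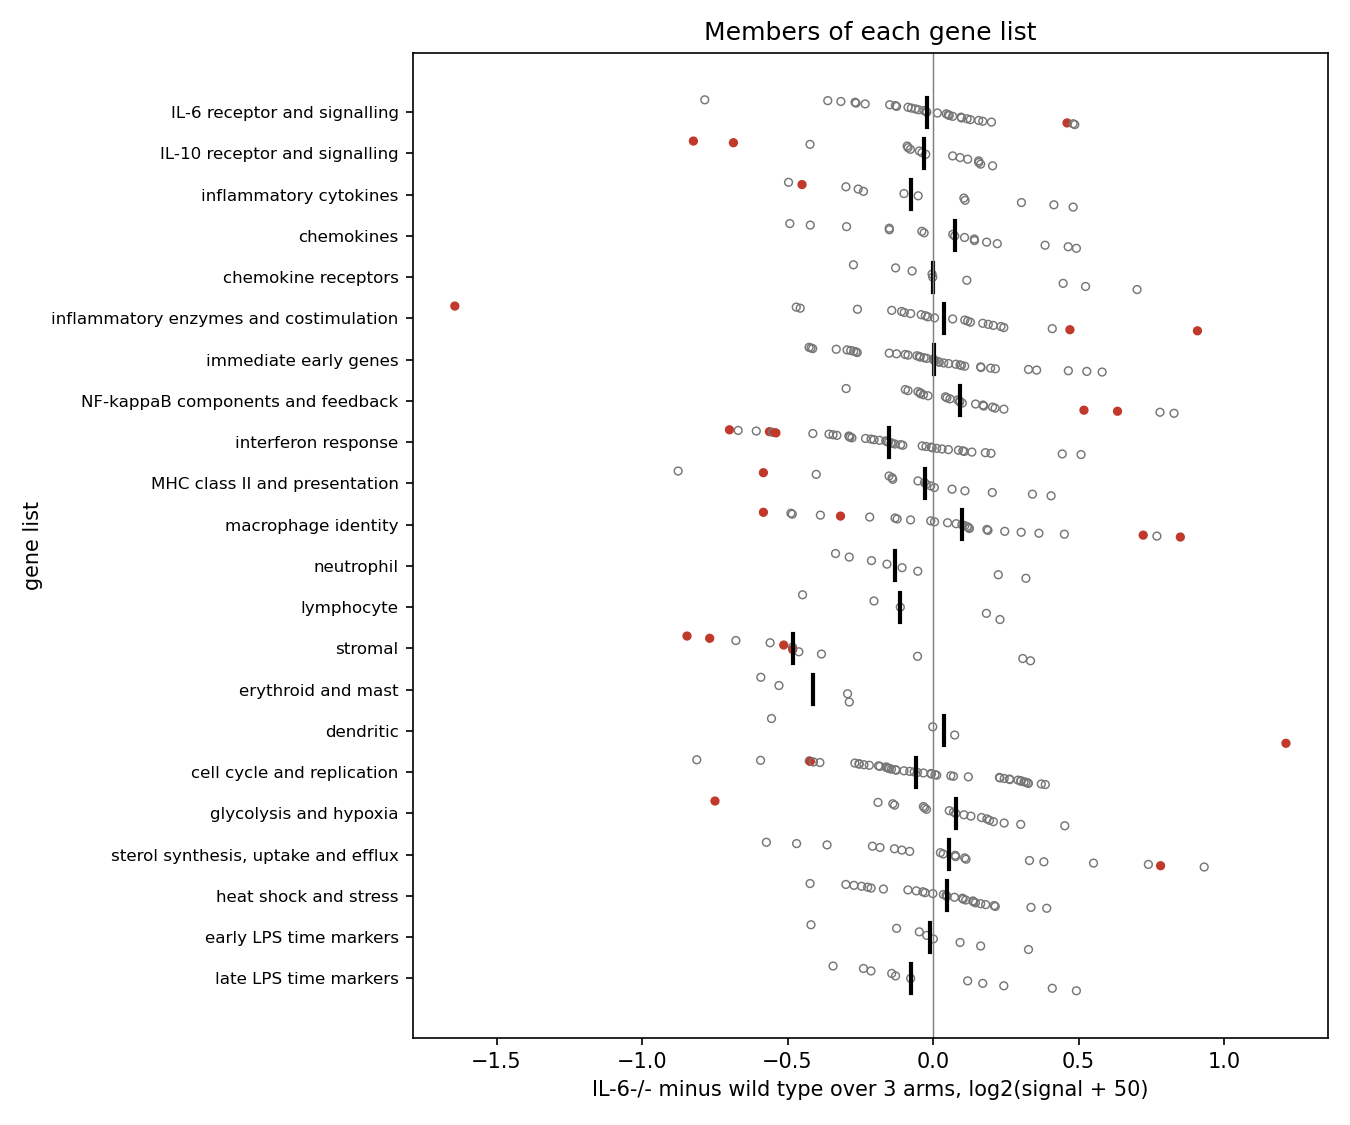
IL-6-/- minus wild type over the 3 arms (horizontal axis, log2 of the signal plus 50) for the tested members of 22 gene lists (vertical axis); each circle is a gene, filled red where called, and the black bar is the list's median. The stromal list has the lowest median, -0.48, and Serpinb2 is the farthest left point at -1.64.

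Within single arms the power was lower, with 2 arrays against 2. LPS+IL-10 at 45 min gave 23 calls (0.28%), 9 higher and 14 lower. LPS+IL-6 at 45 min gave 24 (0.292%), 8 higher and 16 lower, and LPS+IL-10 at 180 min gave 18 (0.219%), 4 higher and 14 lower. These counts moved with single arrays: the first was 4 without wild-type LPS+IL-10 45 min replicate 2, the second 3 without wild-type LPS+IL-6 45 min replicate 1, and the third 64 without wild-type LPS+IL-10 180 min replicate 1 and 4 without IL-6-/- LPS+IL-10 180 min replicate 2. Most of the largest were genes already described: Slc7a7, Gdpd3, Msr1 and Ocel1 rose and Hpgd, Sgip1, Snhg6 and Mtm1 fell in the first arm. In the second arm Rnf26, Uck2, Gdpd3 and Gem rose and Hpgd, the Mir686 probe set, Gatm and Shmt2 fell. In the third F11r, Gdpd3 and C1qb rose and Chil1, Serpinb2, the Mir686 probe set and Snhg6 fell.

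Chil1, a chitinase-like protein gene that rises late after LPS, had the largest called difference at 180 min among the named genes. At 45 min all wild-type and IL-6-/- arrays gave 21 or less. With LPS+IL-10 at 180 min wild type gave 2242 and 2039, IL-6-/- 162 and 159, and IL-10-/- 4429 and 3808 (IL-6-/- minus wild type -3.38 ± 0.34, adjusted p = 0.00086). With LPS alone at 180 min the IL-6-/- array gave 17 and the wild-type arrays 1722 and 1810. F11r, encoding a junctional adhesion molecule, gave 322 and 226 in wild type and 933 and 890 in IL-6-/- at 180 min (1.58, adjusted p = 0.0329) but overlapped at 45 min. Rnf26, a ubiquitin ligase gene, gave 176 and 321 in wild type and 808 and 1374 in IL-6-/- with LPS+IL-6 (1.93, adjusted p = 0.023). Its groups overlapped with LPS+IL-10 at 45 min. With LPS+IL-10 at 180 min Rnf26 gave 852 and 1076 in wild type and 1136 and 1316 in IL-6-/-, without overlap. Mtm1, a lipid phosphatase gene, fell in the first arm (-1.83, adjusted p = 0.017), but a second Mtm1 probe set differed by 0.11 over the arms. Shmt2, a mitochondrial folate enzyme gene, fell in the second arm (-1.76, adjusted p = 0.043).

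Whether the genotype difference itself differed between arms was tested by an interaction. The F test gave 0 calls in limma (0%), with 333 probe sets at a raw p under 0.05. The change from 45 to 180 min with IL-10 gave 0 calls (428 at a raw p under 0.05) and the change from IL-10 to IL-6 at 45 min gave 0 (216 at a raw p under 0.05). In the fit over all 32 grouped arrays Chil1 passed, with an F adjusted p of 0.00174 and a time contrast of -3.24 (adjusted p = 0.00786). With 2 arrays per group, a miss in this test does not show that arms were alike.

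IL-6-/- minus IL-10-/- over the same arms was called for 432 of 8224 probe sets (5.25%), 184 higher and 248 lower. This contrast shares the IL-6-/- arrays with the comparison above and IL-10-/- minus wild type shares the wild-type arrays, so the values are given side by side only. Gdpd3 differed from IL-10-/- by 3.75 (adjusted p = 1e-08), from wild type by 1.49, and IL-10-/- from wild type by -2.26. For Hpgd the 3 values were -2.51 (adjusted p = 5.1e-05), -2.69 and -0.17, and for Snhg6 -1.87 (adjusted p = 7.3e-07), -1.80 and 0.08. Itgax gave 1.13 (adjusted p = 0.00027), 1.21 and 0.09, Fbln2 -1.12 (adjusted p = 0.00027), -1.13 and -0.01, and Ctss -0.64 (adjusted p = 5.4e-05), -0.58 and 0.06. For these genes the test against IL-10-/- itself passed. For C1qb the values were -0.07 (adjusted p = 0.65), 0.72 and 0.80, for Srp9 0.05 (adjusted p = 0.86), 1.14 and 1.08, for Npl 0.37 (adjusted p = 0.6), -1.76 and -2.13, and for Cap1 -0.03 (adjusted p = 0.94), -1.60 and -1.56. Gbp2 gave 0.05 (adjusted p = 0.85), -0.70 and -0.75, and Gbp3 0.04 (adjusted p = 0.86), -0.54 and -0.58. Uck2 gave 0.26 (adjusted p = 0.34), 1.35 and 1.09, and Cd44 0.07 (adjusted p = 0.83), 0.91 and 0.84. In these genes, from C1qb to Cd44, the difference between the knockouts did not pass the test with 6 arrays each.

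Genes next to Il6 on its chromosome were described separately. Of the 25 tested genes on each side, 2 of 50 were called (4%), against 2.41% of all genes: Galnt11, the sixth before Il6, encoding a glycosylation enzyme, was higher (0.79 ± 0.15, adjusted p = 0.0102), and Cenpa, the second after it, was lower. The call of Cenpa was lost for 11 of the 12 arrays left out, that of Galnt11 for none. Galnt11 gave 209 to 397 in wild type and 305 to 644 in IL-6-/-, without overlap within an arm. On the same chromosome 7 of 360 tested genes were called (1.94%).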

How the data were processed

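Total RNA of mouse bone-marrow-derived macrophages was hybridised to Affymetrix MG-U74Av2 arrays. The authors deposited 1 linear intensity per probe set and array, made with MAS5 per the submitters' processing notes, whose version is not given in the sources used here. The 2% trimmed mean of each array lay between 500.29 and 500.4, so a scaling to a common level had been applied; a signal is therefore relative to its own array, and the number of arrays limits the precision. Values were not scaled again.

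Of 12488 probe sets, 66 controls were left out, and 8224 entered the tests because 2 or more of the 32 grouped arrays reached a signal of 200. Of the probe sets on the array 10855 had 1 gene symbol and 396 several in the platform annotation. Where a gene had several probe sets, the brightest on average stands for it. Limma 3.58.1 in R 4.3.3 fitted log2 of the signal plus 50 (lmFit, then eBayes with an intensity trend; 2-sided, Benjamini-Hochberg adjustment over the probe sets of a comparison, threshold 0.05). Folds are on that scale and understate changes of low signals. Over the arms the fit held arm and genotype (8 residual degrees of freedom); within arms and for the interaction it held 6 group means (6 residual degrees of freedom). The fits of IL-6-/- against wild type were run on simulated data with the same genotype difference in every arm. No difference between arms was simulated, and the fits with other arrays were not run this way.

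The members and the gene lists were chosen with earlier results of these data known. Named genes are the 12 largest rises and 12 largest falls called without overlap within each arm, up to 4 called genes per list, all tested genes of the IL-6 list, 10 cytokine and signalling genes throughout, the 4 largest called changes each way per arm and interaction contrast, and called neighbours of Il6. Alternatives changed the pseudocount, filter, normalization, variance trend, design, arms and arrays, and list counts without the array with the highest Gapdh ratio were added after seeing the data. Of the arrays, 2 whose labels do not settle genotype or time entered no comparison. Replicate numbers did not pair the arrays.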

Additional observations from a re-analysis of the deposited data

Results flagged for a closer look

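The Il6 probe set was higher in every IL-6-/- array than in wild type at 45 min and lower at 180 min; with IL-10 the difference at 180 min minus that at 45 min was -3.333 on the log2 scale, and the interaction F test did not pass (adjusted p = 0.123). Chil1 lay above wild type with LPS+IL-6 at 45 min, at signals of 20.8 or less, and below it with LPS+IL-10 at 180 min, a difference of -3.5409 between these arms (F adjusted p = 0.0883).

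Several other genes of the IL-6 list had IL-6-/- arrays wholly above wild type in an arm and wholly below it in another. Each arm holds 2 arrays against 2, and the F test did not pass for any of them. The share of all probe sets with such a pattern was not counted, so it cannot be read as a trait of this list. From LPS+IL-10 to LPS+IL-6 at 45 min the log2 difference changed by -0.6959 for Il6st, by -0.6617 for Jak2 and by 0.4622 for Junb. From 45 to 180 min with IL-10 it changed by -1.3411 for Gab1 and by -0.8103 for Mcl1. For Stat3 it was 0.5373 higher with LPS+IL-10 at 180 min than with LPS+IL-6 at 45 min. The F adjusted p was 0.628 for Gab1, 0.939 for Mcl1 and 1 for the other 4.

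A control probe set for Il10, outside all tests, gave a median signal of 1772.3 over the 6 IL-6-/- arrays (1475.1 to 2206.9), above the 4 resting arrays (318.9 to 431), with 1905.8 to 3512.8 on the 6 wild-type arrays.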

How the results depend on the processing

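Over the 3 arms, the counts of 215, 110 and 105 stayed within 1.5 times under every pseudocount, filter, normalization, trend and design setting tried, from 182 to 277 in all. Without LPS+IL-10 45 min they were 62, 21 and 41, and without LPS+IL-6 45 min 40, 15 and 25, with 8 arrays left. Leaving out 1 array at a time gave 135 to 271 in all, 61 to 158 higher and 67 to 113 lower. Within arms, leaving out 1 array gave 4 to 29 (LPS+IL-10 45 min), 3 to 31 (LPS+IL-6 45 min) and 4 to 64 (LPS+IL-10 180 min), the lone array then assumed to vary like the others. LPS+IL-10 180 min gave 30 with a pseudocount of 10 and 30 with a filter at 500, and LPS+IL-6 45 min gave 9 without the trend.

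The F test gave 1 call with a pseudocount of 200, without a filter, without the trend and in the fit over 32 arrays, and 0 to 1 with an array left out. The time contrast gave 2 calls with a pseudocount of 200, 1 without the trend, 1 over 32 arrays and 0 to 1 with an array left out. IL-6-/- minus IL-10-/- gave 201 calls over 32 arrays and 280 to 545 with an array left out. The causes were not tested.

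The replicate difference of the genotypes correlated by 0.0222, 0.266 and 0.158 in the 3 arms, and not all 3 exceeded 0.1, so the numbers were not taken as pairs. With the replicate block the count over the arms was 277, within arms 69, 74 and 91, for the F test 6 and for the time contrast 4.

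Of 2099 values of 81 genes under alternatives, 1917 kept direction and side of the threshold, 178 lost the call, 3 gained it and 1 reversed: Shc1 gave 0.5346 (adjusted p = 0.042) as the mean of its probe sets. Of the called genes followed, 14 kept their call in every alternative. Probe sets below the signal filter were left out, so nothing is said of their genes, and 6 arrays against 6 limit the precision of the rest.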

Other observations

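A pair of arrays entered no comparison, because the title of 1 names no genotype and the title and protocol of the other give different times. The array without a genotype in its title gave 38.5 for Hpgd, 170.6 for Snhg6, 4483.1 for Gdpd3, 638.4 for Il6 and 1769.4 for Il10, with 16726.6 for Fos and 1123.4 for Saa3. The array with unequal times gave 17.1 for Hpgd, 246.5 for Snhg6, 2108.1 for Gdpd3, 1601.8 for Il6 and 1392.8 for Il10, with 205.1 for Fos and 63550.6 for Saa3.

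By chromosome, the share of tested genes called over the 3 arms was highest on chromosome 14 (13 of 205, 6.34%), chromosome 3 (15 of 302, 4.97%) and chromosome 1 (15 of 350, 4.29%), against 2.41% of all genes. A second Syk probe set, dimmer than the brightest of this kinase gene, rose by 1.75 (log2, adjusted p = 0.0157), and was picked out after its value was seen. The brightest Syk probe set differed by -0.23 (adjusted p = 0.234), so the Syk probe sets disagreed.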
